A study of Mus musculus with 12 samples.

Results

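The genes that encode the proteins of the cytosolic ribosome were followed in mouse peritoneal macrophages (PMφs) loaded with oxidized low-density lipoprotein (oxLDL), stimulated with LPS, or both. A gene was taken when its symbol named a protein of the large (Rpl) or small (Rps) subunit, or was Rpsa, Rplp0, Rplp1, Rplp2 or Fau, and it was also selected on its normalized value, which had to reach 100 in 3 or more of the 12 libraries. Of 89 rows with such a symbol, 81 reached that level, out of 43278 rows in the table, and they comprised 45 genes of the large subunit, 32 of the small subunit and 4 paralogs (Rps27l, Rpl7l1, Rps4l and Rpl22l1). The level rule used the values themselves, so the high expression of these genes is a description and not a result. Just inside it, Rps4l ranged from 87 to 199, and just outside it, Rpl24 ranged from 21 to 85.

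All groups used wild-type C57BL/6J mice, male and female littermates 8 to 12 weeks old, and the cells of up to 10 mice were pooled for an experiment. Each mouse received 1 ml of 4% thioglycolate, an irritant that draws macrophages into the peritoneum, and the cells were collected 4 days later, kept in culture for 18 h, and washed so that adherent cells remained. The control group received neither agent, the oxLDL group received 100 µg/ml human oxLDL for 24 h, the LPS group received 10 ng/ml LPS, and the oxLDL+LPS group received the lipoprotein and then LPS. There were 3 poly(A) RNA libraries a group, and how long LPS was present before RNA was taken is not given in the sources used here. The values were gene counts that had been divided by 1 factor per library and rounded, and they summed to between 17152972 and 17709731 in control libraries, 17440329 and 17444102 in oxLDL libraries, 22590678 and 26384551 in LPS libraries and 22071853 and 23346854 in oxLDL+LPS libraries. The depth implied by the factors was between 16725738 and 26178068 reads a library. All 8 macrophage markers examined were expressed in every group, with summed values from 230338 to 321679, while B cell, T cell, neutrophil, eosinophil and mast cell markers summed to at most 109 in any library. Mesothelial and fibroblast markers were more abundant and more variable, with summed values from 4428 to 27494, and their part in the results was not tested.

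A eukaryotic ribosome is built from a small subunit, which reads the mRNA, and a large subunit, which joins amino acids. Each subunit is an rRNA core with a set of proteins that are needed in about equal numbers, and so their genes are known for high and coordinated expression. Their mRNAs typically begin with a C followed by a run of pyrimidines, the 5′ terminal oligopyrimidine (TOP) tract, through which mTORC1 signaling sets how actively they are translated. LPS activates Toll-like receptor 4 and reshapes macrophage transcription and translation, and the purpose of the study was to see how prior oxLDL uptake alters that response.

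Start sites are shown for some of the genes discussed below, whether called or not. The TOP tract is the feature that marks this class of mRNA. Each line holds the 30 bases from 10 before to 20 from the annotated RefSeq start on the gene's own strand in GRCm38.p6, with the pyrimidine tract in capitals where one was found. A tract was a C at the start, or within 5 bases of it, followed by at least 4 further pyrimidines. Rpl10a, Rpl10, Rplp0 and Rps4x, discussed below but not shown, had no tract at their annotated starts. The genes shown therefore do not stand for the class, and a tract at another start would be missed.
Fau: gcccccacttCTTCCTCTTTCTTgactcca
Rpl13a: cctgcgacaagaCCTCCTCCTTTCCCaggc
Rps6: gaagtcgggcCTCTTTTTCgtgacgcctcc
Rps9: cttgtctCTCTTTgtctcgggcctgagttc
Rps27: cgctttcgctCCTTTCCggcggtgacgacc
Rps27l: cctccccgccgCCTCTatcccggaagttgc
Rpl22l1: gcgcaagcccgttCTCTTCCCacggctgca
Rpl7l1: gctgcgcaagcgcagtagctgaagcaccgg
Rpl27: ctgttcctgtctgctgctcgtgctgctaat
These windows lie at chr19:6057937-6057966 on the plus strand (Fau), chr7:45128726-45128755 on the minus strand (Rpl13a), chr4:86857348-86857377 on the minus strand (Rps6), chr7:3704031-3704060 on the plus strand (Rps9), chr3:90213629-90213658 on the minus strand (Rps27), chr9:66946076-66946105 on the plus strand (Rps27l), chr3:28805498-28805527 on the plus strand (Rpl22l1), chr17:46782637-46782666 on the minus strand (Rpl7l1) and chr11:101442235-101442264 on the plus strand (Rpl27). Rps27 and its paralog Rps27l both had a tract at these starts, although a second annotated start of Rps27l, at chr9:66946413, had none. None was found in the windows of Rpl7l1 and Rpl27. The window of Rpl27 ends before chr11:101442298, where the annotation used for gene coordinates starts this gene. It therefore cannot show whether a tract lies at that start.

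Of the 81 genes, 60 had an entry in the RefSeq promoter table. A pyrimidine start was found in 30 of them (50%), against 21.2% of all 27025 symbols in the table. A tract away from the annotated start would be missed, in these genes as in all symbols. In the promoter window from 250 bases before to 50 after the start, the letters CCGGAAG, searched on both strands as the core of sites bound by ETS-family factors such as GABP, occurred in 41.7% of the 60 genes and in 9.93% of all symbols. The letters AAGATGGC, a YY1-type site, occurred in 11.7% and 3.19%, and TATAA occurred in 28.3% and 28.0%, each on either strand. The median log2 difference between LPS and control was 0.17 for genes with a pyrimidine start and 0.12 for those without one, on the deposited scale. It was 0.19 with and 0.13 without CCGGAAG, 0.15 and 0.14 for AAGATGGC, and 0.13 and 0.15 for TATAA. None of these gaps was tested.

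Levels differed widely among the 81 genes. The lowest of the 81 was a paralog, but the level rule had left out a core gene, Rpl24, which lay lower still. Divided by the length of the merged exons in kb, Rpl24 stood at 53.7 per kb in control PMφs. The median of the 81 genes there was 4120 per kb, with quartiles of 2733 and 6476. The highest of the 81 was 146 times the lowest, a span that the level rule cut at its low end. The highest was Rplp1, a protein of the stalk that recruits translation factors, at 15432 ± 1730 per kb (SD, n = 3). Rpl10, which joins the large subunit late in its assembly, followed at 13585 ± 1611 per kb, and Rps29, a small zinc-binding protein of the small subunit, came next at 11093 ± 1340 per kb. Replicates of Rplp1 spanned 14333 to 17427 per kb and those of Rpl10 12122 to 15311, so that these neighbours overlapped, as did Rpl10 and Rps29 (10005 to 12590). At the low end stood Rps4l with 106 ± 12.7 per kb, Rpl7l1 with 390 ± 24.1 per kb and Rpl22l1 with 617 ± 253 per kb, which are paralogs, and Rps15a, a small-subunit protein, with 686 per kb. The merged exons of Rps15a measured 5395 bases, against a median of 975, and its level per kb depends on that length. Without division by length, it held 0.979% of the summed value of the 81 genes in control libraries. Lengths came from a later gene annotation than the counts, and reads shared with the many processed pseudogenes of this class could not be assigned, so the order of levels is approximate. The 252 rows with an Rpl or Rps pseudogene symbol of the -ps type held between 0.0034% and 0.0043% of the library total as group means. Pseudogenes under other symbols were not counted.

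The genes took a smaller part of each library after LPS, with or without oxLDL. They held 2.14%, 1.93% and 2.40% of the total in control replicates 1, 2 and 3, and 2.27%, 2.01% and 2.30% in the oxLDL replicates. In LPS replicates the share was 1.67%, 1.63% and 1.79%, and in oxLDL+LPS replicates it was 1.82%, 1.76% and 1.81%. Every LPS-treated library lay below every library without LPS, whereas the control and oxLDL libraries overlapped. Relative to the control of the same replicate number, the share after LPS was 0.782, 0.843 and 0.745 times as large, and relative to oxLDL the share after oxLDL+LPS was 0.802, 0.877 and 0.787 times as large.

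The reduction in share was of similar size in both subunits. Large-subunit genes held 1.25% ± 0.121 of the total in control libraries and 0.970% ± 0.0364 after LPS (SD, n = 3), and small-subunit genes held 0.893% ± 0.111 and 0.714% ± 0.0475. The small subunit made up 41.3% ± 0.788 of the summed value of the 81 genes in control libraries and 42.1% ± 0.968 in LPS libraries. In bulk RNA of this kind, fewer cells of a type and less RNA per cell cannot be told apart. The share of the 10 most abundant rows of the table moved with the same groups, from 16.6% in control and 17.1% in oxLDL libraries to 12.3% in LPS and 13.5% in oxLDL+LPS libraries, and its part in the result was not tested.

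**Figure D1:**
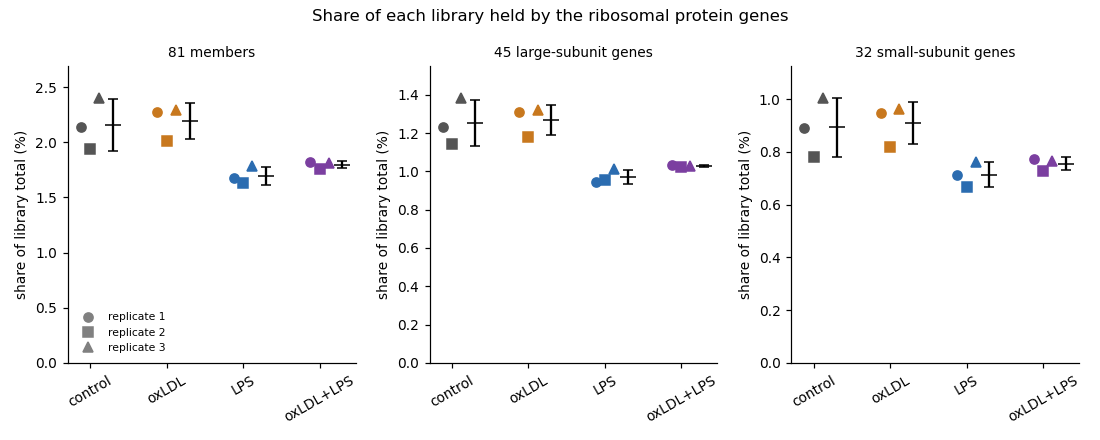
Percent of the library total held by all 81 genes, the large-subunit genes and the small-subunit genes (y axes from 0) for each library of the 4 groups (x axes), with marker shapes for replicate numbers and black bars for mean ± SD. LPS and oxLDL+LPS libraries lie between 1.63% and 1.82% in the first panel, below all control and oxLDL libraries.

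Against the typical gene, in contrast, the direction was the opposite on the deposited scale. The deposited scaling placed the median of all tested rows near 0 between LPS and control (log2 difference of -0.00097), and on that scale the median log2 difference of the 81 genes was 0.16, with 73 above 0 and 8 below. With libraries brought to 1 total, the median of all rows moved to -0.48 and that of the 81 genes to -0.32. The distance between these medians was 0.16 under either scaling, since 1 factor per library moves all rows alike. It was 0.08 against the 8646 other rows whose mean lay between those of the lowest and the highest member. That range starts at Rps4l, so these rows were not matched to the 81 genes in level. After quantile normalization the 81 genes stood at -0.44 and all rows at -0.14, so that they then lay below the typical gene. Directions below are given on the deposited scale, relative to the typical gene, with the value at 1 library total beside them.

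**Figure D2:**
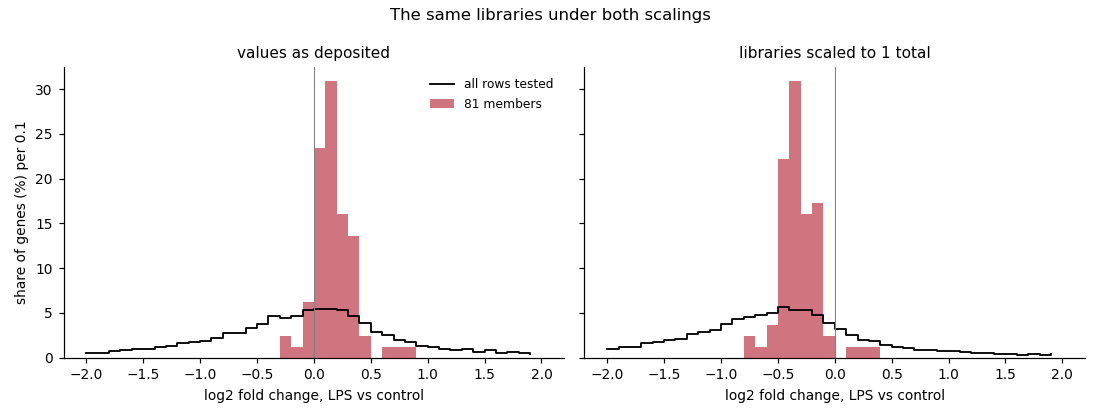
Distribution of log2 differences between LPS and control (x axes) as percent of genes per bin of 0.1 (y axis), for the 81 genes (red bars) and all rows tested (black line), on the deposited scale (left) and with libraries scaled to 1 total (right). Both distributions move left together at 1 total, where the median of the 81 genes is -0.32 and that of all rows is -0.48.

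Between LPS and control, 16 of the 81 genes were called higher on the deposited scale and 1 was called lower (limma, adjusted p under 0.1), whereas 31.4% of all 13023 rows tested were called higher and 30.3% lower. At 1 library total, none was called higher and 51 were called lower, beside 16.7% and 55.8% of all rows, and 13 of the 16 genes changed sign. With the replicate number as a block the counts were 31 and 1 on the deposited scale, beside 34.6% and 34.1% of all rows. The count also varied with single libraries. It fell from 17 to 4 without control replicate 2 and to 5 without control replicate 1 or LPS replicate 3. It came to 23 without control replicate 3. Over all rows, 4093 were called higher and 3946 lower of 13023 with all libraries. These were 3649 and 3291 of 12706 without control replicate 2, and 3671 and 3271 of 12694 without control replicate 1. They were 3403 and 3633 of 12663 without LPS replicate 3, and 3676 and 3205 of 12757 without control replicate 3. Rpl7l1 and Rps4l stayed called in all 9 fits that left out a library or a replicate number.

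**Figure D3:**
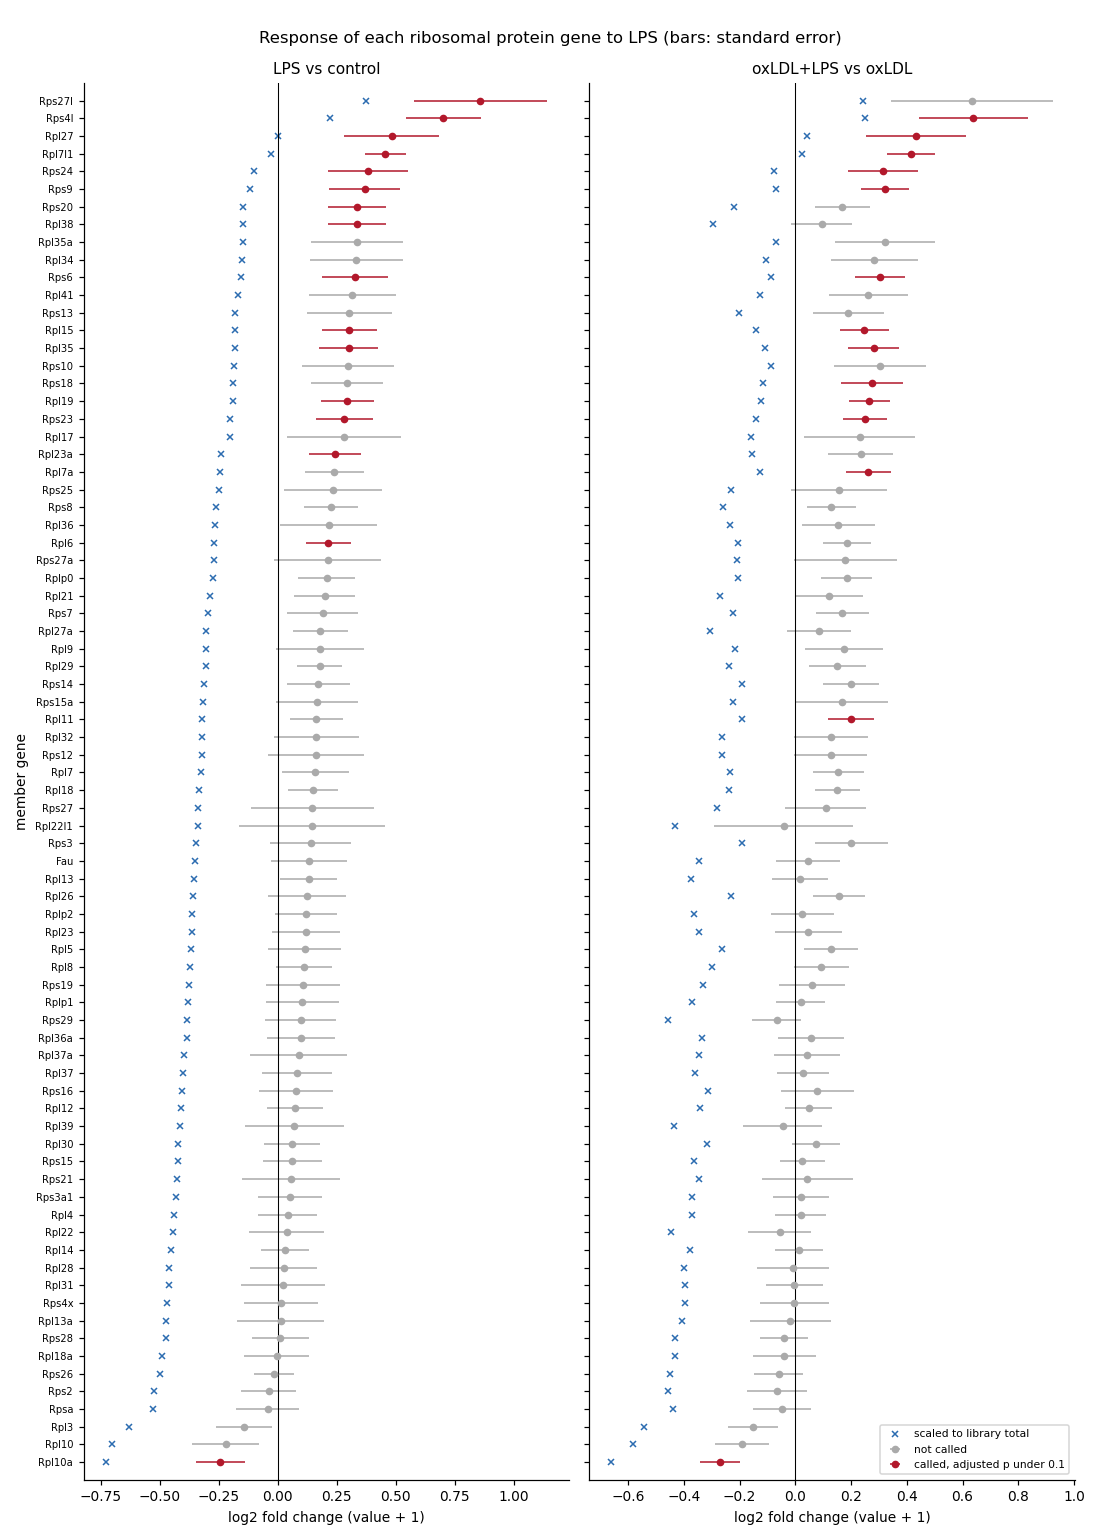
Log2 differences (x axes) of 78 of the 81 genes (y axis) between LPS and control (left) and between oxLDL+LPS and oxLDL (right), with dots and SE bars on the deposited scale, red where the adjusted p was under 0.1, and blue crosses with libraries at 1 total. Most dots lie above 0 and most crosses below 0, while Rps27l and Rps4l lie above 0 and Rpl10a, Rpl10 and Rpl3 below 0 on both scales.

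Called genes were found in all classes, and the paralogs lay highest. In the large subunit 7 of 45 genes were called higher and 1 lower, with a median of 0.13 on the deposited scale and -0.35 at 1 total, where none was called higher and 33 lower. In the small subunit 6 of 32 were called higher and none lower, with medians of 0.16 and -0.32, and 18 were called lower at 1 total. Of the 4 paralogs 3 were called higher, with medians of 0.58 and 0.10, and none was called at 1 total. With the replicate block 15 large-subunit genes were called higher and 1 lower, and 13 small-subunit genes and 3 paralogs were called higher. Of all rows tested, 31.4% were called higher on the deposited scale, and 55.8% were called lower at 1 total.

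The paralogs are close relatives of a core ribosomal protein gene and were mostly expressed below its level. Rps27l (ENSMUSG00000036781.13, chr9:66946086-66949516), a paralog of Rps27 known as a target of p53, had values of 374, 341 and 591 in control replicates 1, 2 and 3 and 914, 520 and 949 in LPS replicates. Only LPS replicate 2 lay below the highest control, and every LPS library was above the control of its own number. The log2 difference was 0.86 with an SE of 0.28 (limma, adjusted p = 0.034) on the deposited scale and 0.38 at 1 total (adjusted p = 0.272). In the oxLDL replicates it was 494, 336 and 613, and in the oxLDL+LPS replicates it was 911, 494 and 846, for a difference of 0.63 with an SE of 0.29 (limma, adjusted p = 0.114), which passed the threshold with the replicate block (adjusted p = 0.0031) and was 0.24 at 1 total.

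Its parent, Rps27 (ENSMUSG00000090733.6, chr3:90212522-90213651), a zinc-binding protein of the small subunit, moved less. Rps27 had values of 2265, 2546 and 3990 in control and 2506, 2862 and 4356 in LPS replicates, which overlapped, and the log2 difference of 0.15 did not pass the test (limma, adjusted p = 0.667). Per kb, Rps27l stood at 13.2%, 10.7% and 11.8% of Rps27 in control replicates and at 29.1%, 14.5% and 17.4% in LPS replicates. In oxLDL replicates the ratio was 14.2%, 10.2% and 13.3%, and in oxLDL+LPS replicates it was 24.0%, 13.0% and 18.4%. Such ratios do not depend on library scaling, and each number showed a higher ratio with LPS than without it.

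Rpl7l1 (ENSMUSG00000063888.7, chr17:46773907-46782672), a paralog of the large-subunit protein gene Rpl7, was 1237, 1145 and 1295 in control, 1285, 1106 and 1266 in oxLDL, 1675, 1607 and 1763 in LPS and 1669, 1613 and 1582 in oxLDL+LPS replicates. All LPS-treated libraries lay above all libraries without LPS. The log2 difference from control was 0.46 with an SE of 0.088 (limma, adjusted p = 0.00326) on the deposited scale but -0.03 at 1 total. From oxLDL to oxLDL+LPS it was 0.41 with an SE of 0.087 (limma, adjusted p = 0.00635) and 0.02 at 1 total. Rpl7 itself was 8166, 7056 and 9024 in control and 7746, 9073 and 10302 in LPS replicates, which overlapped (log2 difference of 0.16, limma, adjusted p = 0.375). Per kb, Rpl7l1 was 5.61%, 6.01% and 5.32% of Rpl7 in control and 8.01%, 6.56% and 6.34% in LPS replicates.

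Rps4l (ENSMUSG00000063171.4, chr6:148354656-148355598) is a paralog of Rps4x, the X-linked gene of a small-subunit protein. Its merged exons are 943 bases long and span the whole locus, so that it has no intron. Rps4l was 88, 99 and 112 in control, 87, 116 and 122 in oxLDL, 147, 168 and 172 in LPS and 144, 199 and 164 in oxLDL+LPS replicates, and no library with LPS overlapped one without it. The log2 difference was 0.70 with an SE of 0.16 between LPS and control (limma, adjusted p = 0.00674) and 0.64 with an SE of 0.20 between oxLDL+LPS and oxLDL (limma, adjusted p = 0.0311), with 0.22 and 0.25 at 1 total. At about 100 reads it rests on the fewest counts of all 81 genes, and reads it shares with Rps4x were not separated here.

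Rps4x was 9818, 9419 and 10855 in control and 7976, 11451 and 11299 in LPS replicates, with a log2 difference of 0.01 (limma, adjusted p = 0.952). Per kb, Rps4l was 0.927%, 1.09% and 1.07% of Rps4x in control and 1.91%, 1.52% and 1.57% in LPS replicates. Rpl22l1 did not follow the other paralogs, with 482, 199 and 357 in control and 314, 333 and 444 in LPS replicates (log2 difference of 0.15 with an SE of 0.31, limma, adjusted p = 0.72). Its control replicates spanned a wider range than the LPS replicates, and its level per kb was 103%, 46.9% and 59.0% of that of Rpl22 in control and 61.1%, 76.4% and 76.6% in LPS replicates.

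**Figure D4:**
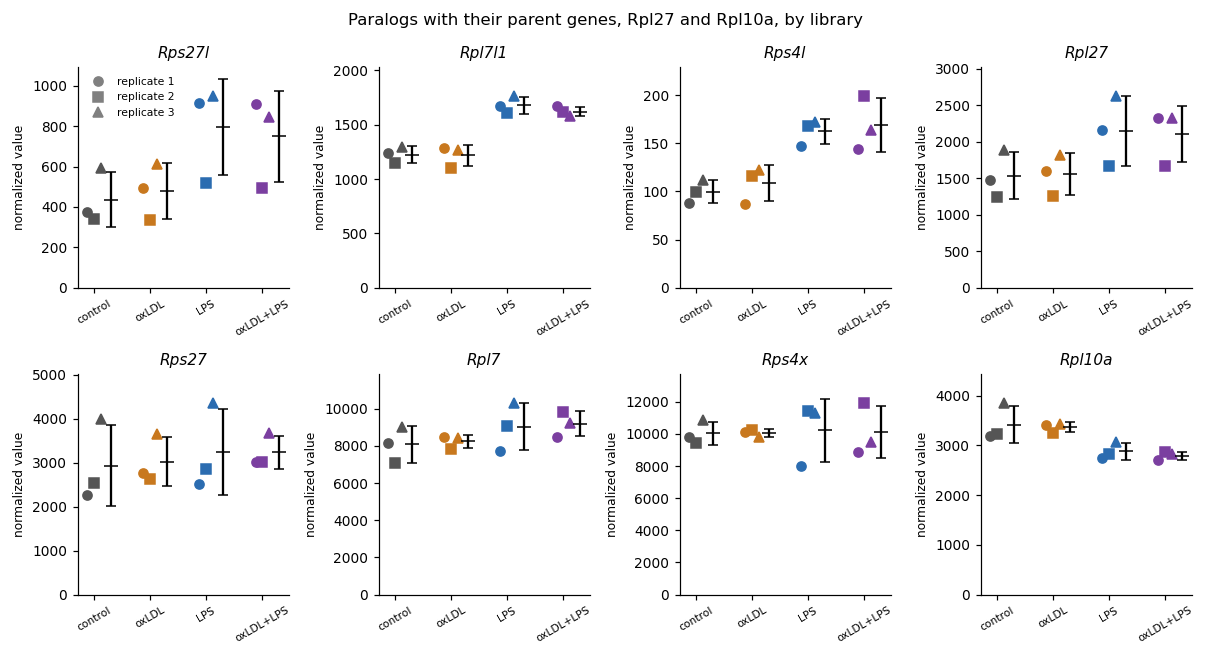
Normalized values (y axes from 0) of the paralogs Rps27l, Rpl7l1 and Rps4l above their parent genes Rps27, Rpl7 and Rps4x, and of Rpl27 above Rpl10a, in each library of the 4 groups (x axes), with marker shapes for replicate numbers and black bars for mean ± SD. Rpl7l1 and Rps4l are higher and Rpl10a is lower in every library with LPS on this deposited scale, while between LPS and control Rpl7l1 is at -0.03 at 1 library total.

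Among the small-subunit genes called higher were Rps9, Rps24, Rps20, Rps23 and Rps6, and each of them was below 0 at 1 total. Rps9, which helps hold the mRNA at its entry, was 6398, 6097 and 8049 in control and 8472, 7760 and 10272 in LPS replicates, so that 1 LPS library lay below the highest control. Its log2 difference was 0.37 (limma, adjusted p = 0.0699) against -0.12 at 1 total. Rps24, which has a role in rRNA maturation, differed by 0.38 (limma, adjusted p = 0.0908) against -0.10 at 1 total. Rps20 of the subunit's head differed by 0.34 (limma, adjusted p = 0.0518) against -0.15, and Rps23 of the decoding centre by 0.28 (limma, adjusted p = 0.0824) against -0.20.

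Rps6 is the ribosomal protein that S6 kinases phosphorylate downstream of mTORC1. Rps6 was 3350, 2917 and 3817 in control and 3685, 4106 and 4885 in LPS replicates, and the groups overlapped. The log2 difference was 0.33 with an SE of 0.14 (limma, adjusted p = 0.082) on the deposited scale and -0.15 at 1 total. From oxLDL (3532, 3162 and 3751) to oxLDL+LPS (4087, 4408 and 4371) the groups no longer overlapped, and the difference was 0.30 with an SE of 0.090 (limma, adjusted p = 0.0273) and -0.09 at 1 total.

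In the large subunit, Rpl27 (ENSMUSG00000063316.13, chr11:101442298-101445529) had the largest difference outside the paralogs. It was 1468, 1244 and 1885 in control and 2163, 1660 and 2621 in LPS replicates, so that LPS replicate 2 lay below control replicate 3, although within numbers 1, 2 and 3 it was higher with LPS by 0.56, 0.42 and 0.48 on the log2 scale. The difference was 0.48 with an SE of 0.20 (limma, adjusted p = 0.0767) on the deposited scale and within 0.0001 of 0 at 1 total. Rpl38, whose mutation in mice alters body patterning, differed by 0.34 (limma, adjusted p = 0.0483) against -0.15 at 1 total. Rpl15 differed by 0.30 (limma, adjusted p = 0.0569) against -0.18, Rpl19 by 0.30 (limma, adjusted p = 0.0562) against -0.19, and Rpl35 at the exit of the peptide tunnel by 0.30 (limma, adjusted p = 0.0751) against -0.18. Rpl23a, also at the tunnel exit, and Rpl6 differed by 0.24 and 0.21 (limma, adjusted p = 0.0944 for both) against -0.24 and -0.27.

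The 1 gene called lower was Rpl10a (ENSMUSG00000037805.15, chr17:28328471-28331033), the protein of the L1 stalk, where spent tRNA leaves the ribosome. Rpl10a was 3188, 3220 and 3851 in control, 3408, 3254 and 3440 in oxLDL, 2751, 2824 and 3063 in LPS and 2701, 2859 and 2821 in oxLDL+LPS replicates. No LPS-treated library reached the lowest library without LPS. It fell by 0.24 on the log2 scale with an SE of 0.10 between LPS and control (limma, adjusted p = 0.082) and by 0.27 with an SE of 0.072 between oxLDL+LPS and oxLDL (limma, adjusted p = 0.0177), and it was lower under each scaling tried, with -0.73 and -0.66 at 1 total.

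Changes among the mRNAs of the class were read by scaling each library to the geometric mean of the 81 genes, which removes the shift of the whole class. These are mRNA levels, and the protein content of ribosomes was not measured. On that scale 3 genes were called higher after LPS and 3 lower, beside 21.2% and 32.7% of all rows. Among the higher were Rps27l by 0.69 (limma, adjusted p = 0.0351) and Rps4l by 0.53 (limma, adjusted p = 0.0546). Lower were Rpl10a with -0.42 (limma, adjusted p = 0.0233), Rpl10 with -0.39 (adjusted p = 0.0387) and Rpl3, which lies by the peptidyl transferase centre, with -0.32 (adjusted p = 0.0847). With the replicate block 7 were called in each direction, beside 26.6% of all rows higher and 42.1% lower, and the added genes included Rpl27, Rpl7l1, Rps24 and Rps9 among the higher and Rpsa, Rps26 and Rps28 among the lower.

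Rpl10 (ENSMUSG00000008682.13, chrX:74270812-74273135) was the gene with the second largest share of the class in control libraries. Its share of the summed value was 3.28%, 3.26% and 3.25% in control and 3.19%, 3.17% and 3.05% in oxLDL replicates, against 2.37%, 2.72% and 2.54% in LPS and 2.44%, 2.63% and 2.59% in oxLDL+LPS replicates. The 2 sets of libraries did not overlap. Its deposited values were 12031, 10946 and 13826 in control and 8961, 10748 and 11958 in LPS replicates, and on the deposited scale the log2 difference of -0.22 did not pass the test (limma, adjusted p = 0.23).

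Members with named side roles were mostly not called on the deposited scale. The stalk genes Rplp0, Rplp1 and Rplp2 differed by 0.21, 0.10 and 0.12 between LPS and control (limma, adjusted p = 0.188, 0.598 and 0.472), and all 3 were called lower at 1 total. Rplp0, often taken as a reference gene in PCR, was called with the replicate block (adjusted p = 0.082). Rpl5 and Rpl11, which with 5S rRNA bind the p53 regulator Mdm2, differed by 0.12 and 0.16 (limma, adjusted p = 0.562 and 0.257), whereas both were called lower at 1 total, with -0.37 and -0.32 (limma, adjusted p = 0.0284 and 0.0153).

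The ubiquitin fusion gene Rps27a differed by 0.21 (limma, adjusted p = 0.461, and 0.0502 with the replicate block), and by -0.27 at 1 total (adjusted p = 0.3). Fau, which encodes a ubiquitin-like fusion, differed by 0.13 (limma, adjusted p = 0.52), and it was called lower at 1 total with -0.35 (adjusted p = 0.0755). Rpl13a, a protein of the complex that silences inflammatory mRNAs in interferon-treated myeloid cells, was 5659, 5032 and 7663 in control and 6480, 5004 and 6906 in LPS replicates. Its groups overlapped and the log2 difference was 0.01 (limma, adjusted p = 0.962), but it was called lower at 1 total with -0.47 (adjusted p = 0.048). Rps3, which also binds NF-κB, differed by 0.14 (limma, adjusted p = 0.525), Rpl26 by 0.13 (adjusted p = 0.556), Rps19 by 0.11 (adjusted p = 0.601) and Rpsa, the laminin receptor precursor, by -0.04 (adjusted p = 0.812). At 1 total these 4 were called lower, with -0.34 for Rps3, -0.36 for Rpl26, -0.38 for Rps19 and -0.53 for Rpsa (limma, adjusted p = 0.0862, 0.0427, 0.0468 and 0.00469).

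In cells that had first taken up oxLDL, the genes again lay mostly above the typical gene after LPS on the deposited scale, and lower as a share of the library. After quantile normalization they lay below it, with a median of -0.36 against -0.13 for all rows. Between oxLDL+LPS and oxLDL 15 genes were called higher and 1 lower on the deposited scale, beside 28.2% and 26.3% of all 12900 rows, with a median of 0.13 against -0.02 for all rows. At 1 total none was called higher and 47 were called lower, beside 15.8% and 51.7% of all rows, and the medians were -0.26 and -0.41. With the replicate block 27 were called higher and 1 lower, beside 32.0% and 31.4%. Scaled to the geometric mean of the class, 3 genes were called in each direction, beside 21.2% of all rows higher and 30.7% lower, with Rps4l and Rpl7l1 among the higher and Rpl10a, Rpl10 and Rpl3 the lower.

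This comparison shares no library with that of LPS and control, although both drew on the same cell pools. In both comparisons 12 genes were called, 70.6% of the 17 called between LPS and control and 75% of the 16 called between oxLDL+LPS and oxLDL. Over all rows tested, 6548 were called with 1 sign in both, 81.5% and 93.1% of those called in each. Rpl23a, Rpl38, Rpl6, Rps20 and Rps27l were called between LPS and control alone, and Rpl11, Rpl7a and Rps18 were among those called between oxLDL+LPS and oxLDL alone, which does not show that their responses differed. With the replicate block 24 genes were called in both, 75% of 32 and 85.7% of 28, and Rpl23a, Rps27l, Rpl7a and Rps18 were then among them. Rpl7a, a large-subunit protein, differed by 0.26 with an SE of 0.082 (limma, adjusted p = 0.0331) after oxLDL and by 0.24 with an SE of 0.12 without it (adjusted p = 0.137), with -0.13 and -0.24 at 1 total.

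The difference between the 2 LPS responses was tested directly as an interaction. No gene was called by limma, and none of the 13482 rows was, with or without the replicate block (0.0% in both), and 0 of the 81 genes had an unadjusted p under 0.05 in either fit. The median interaction of the 81 genes was -0.03 log2 units on the deposited scale, with 14 above 0 and 67 below, but 0.06 at 1 total. The lowest values were those of Rpl38 with -0.24 ± 0.17 (SE), Rps27l with -0.23 ± 0.45 and Rpl22l1 with -0.19 ± 0.44, and the highest was that of Rps3 with 0.06 ± 0.23.

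oxLDL alone had no called gene among the 81 at 3 libraries a group. Between oxLDL and control 0.0% of 12751 rows were called by limma, and no member had an unadjusted p under 0.05. With the replicate block 4.71% of all rows were called, again with no member among them, although 2 members had an unadjusted p under 0.05. The median was 0.03, with medians of 0.12, 0.06 and -0.08 within replicate numbers 1, 2 and 3, so that 80 of the 81 genes were higher in number 1 and 6 were higher in number 3. Without number 3, the blocked fit called 29 of them higher, beside 4.27% of all rows. That fit was added after seeing the data and rests on 2 libraries a group. It leaves out the number in which most of the 81 genes were lower with oxLDL, so it does not show an oxLDL effect on the class.

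The highest single gene was Rpl39, a short protein of the peptide tunnel, which was 1814, 1227 and 1976 in control and 2144, 1479 and 1951 in oxLDL replicates. Its groups overlapped, and the log2 difference was 0.16 with an SE of 0.20 (limma, adjusted p = 1, and 0.186 with the block). The lowest was Rpl23a at -0.07 with an SE of 0.097 (limma, adjusted p = 1).

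Between oxLDL+LPS and LPS no gene was called either, beside 0.0% of 12786 rows, and with the replicate block none was called beside 13.2% of all rows. No member had an unadjusted p under 0.05 in either fit. The median was -0.01 on the deposited scale and 0.08 at 1 total, and within numbers 1, 2 and 3 it was 0.10, 0.05 and -0.16. In number 3 all 81 genes were lower with oxLDL on the deposited scale, while 63 and 66 were higher in numbers 1 and 2, but at 1 total 71, 79 and 53 were higher in numbers 1, 2 and 3, with medians of 0.13, 0.11 and 0.020. Extremes were Rps3 at 0.11 with an SE of 0.14 and Rpl22l1 at -0.19 with an SE of 0.16.

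On the deposited scale these genes varied more between replicate numbers than between groups, and at 1 total the order was the opposite. Of the summed squared log2 deviations of the 81 genes from their means, 32.9% lay between groups and 48.8% between replicate numbers as deposited. For the 8646 other rows between the lowest and the highest member mean it was 89.7% and 7.11%, but these rows were not matched in level. At 1 total 56.3% of the deviations of the 81 genes lay between groups and 32.5% between replicate numbers. On the deposited scale number 3 was higher than number 2 in all 4 groups for 51 genes and lower in all 4 for 3 genes, with a median log2 difference of 0.21. That difference ran from -0.25 for Rpl23a to 0.82 for Rps27l, and it was 0.65 for Rpl17 and 0.60 for Rps27a.

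**Figure D5:**
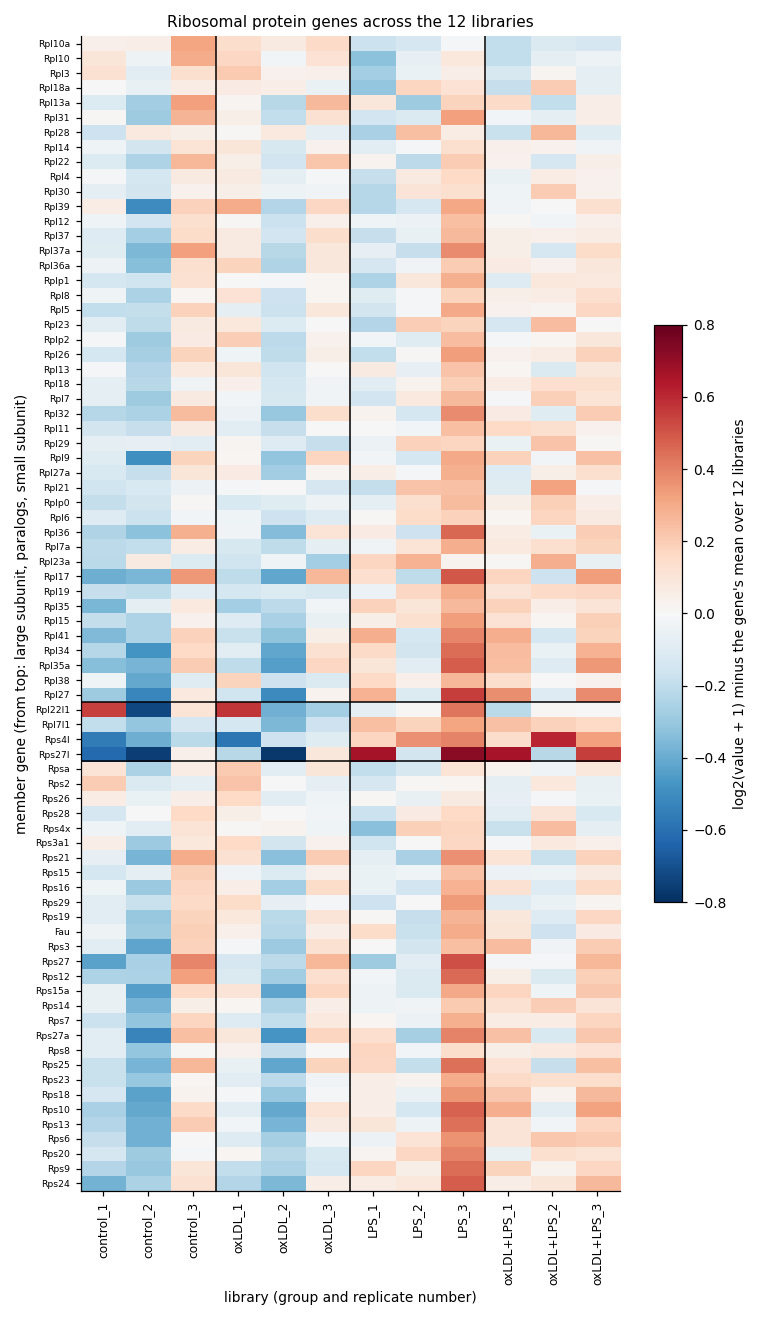
Log2(value + 1) of 78 of the 81 genes (y axis, by subunit) minus its mean over the 12 libraries (x axis, by group and replicate number), from blue (lower) to red (higher), on the deposited scale. Replicate number 3 is higher than number 2 in all 4 groups for 51 of the 81 genes, while Rps27l, Rps4l and Rpl7l1 are on average redder in the libraries with LPS, although Rpl7l1 is at -0.03 between LPS and control at 1 library total.

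Other genes of translation were read from lists made with earlier results of these data known. Between LPS and control 20 of 32 initiation factor genes were called higher and 1 lower, beside 31.4% and 30.3% of all rows, with a median of 0.41 on the deposited scale. At 1 total 8 were called higher and 9 lower, beside 16.7% and 55.8% of all rows, with a median of -0.07. Eif6, which keeps free large subunits from joining small ones, was higher by 1.76 with an SE of 0.14 (limma, adjusted p = 2.72e-05), and Eif4e, the cap-binding protein, by 1.31 with an SE of 0.13 (limma, adjusted p = 9.73e-05). Eif4b, which assists the Eif4a helicase, fell by 0.72 with an SE of 0.095 (limma, adjusted p = 0.000449). Both Eif6 and Eif4e were also called higher, and Eif4b lower, at 1 total.

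Elongation factor genes stayed closer to the ribosomal protein genes. Eef1e1, a component of the tRNA synthetase complex, was higher by 1.81 with an SE of 0.17 (limma, adjusted p = 8.25e-05), and the other 5 of 6 were not called on the deposited scale. At 1 total Eef1e1 was called higher and Eef1a1, Eef1b2, Eef1d, Eef1g and Eef2 were called lower. The list's median was 0.04 on the deposited scale and -0.44 at 1 total. Of 9 other genes with TOP mRNAs, Btf3, Hnrnpa1 and Npm1 were called higher, with a median of 0.21 and -0.27 at 1 total, where Btf3 was called higher and Gnb2l1, Naca, Nap1l1 and Tpt1 were called lower. Of 5 genes for chaperones and assembly factors of ribosomal proteins, Bccip, Grwd1 and Tsr2 were called higher, with a median of 0.36 and -0.12 at 1 total, where none was called higher and Heatr3 and Pdcd2l were called lower.

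After oxLDL the same lists gave 19 initiation factor genes higher and 1 lower, 1 elongation factor gene higher, 2 other TOP genes higher and 3 chaperone genes higher, beside 28.2% of all rows higher and 26.3% lower. At 1 total 7 initiation factor genes were called higher and 11 lower, 1 elongation factor gene higher and 3 lower, 1 other TOP gene higher and 4 lower, and no chaperone gene either way, beside 15.8% and 51.7% of all rows. Their medians were 0.34, 0.05, 0.14 and 0.33 on the deposited scale and -0.05, -0.34, -0.25 and -0.06 at 1 total. None of these genes was called between oxLDL and control or between oxLDL+LPS and LPS without the block. With the block, Grwd1 was called higher between oxLDL and control, beside 4.71% of all rows called in either direction. Between oxLDL+LPS and LPS, 1 initiation factor gene was called lower with the block, beside 13.2% of all rows in either direction.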

How the data were processed

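RNA-seq of mouse PMφs was measured in 12 libraries. Per the labels and the study's methods, paired 150-base reads came from stranded poly(A) libraries, and the authors used Trimmomatic 0.32 for trimming, STAR 2.5.1b for alignment to the mm10 build (GRCm38) and featureCounts for gene counts. The deposited signal values were whole numbers: counts divided by 1 factor per library (0.708 to 1.31, read from the steps of the values) and rounded, so no count test was used. Groups came from the labels.

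The members and gene lists were chosen with earlier results of these data known. Differences were tested with limma 3.58.1 (R 4.3.3; lmFit, eBayes with a variance trend) on log2(value + 1), over rows at 10 or more in at least 3 of the libraries compared, with Benjamini-Hochberg adjustment over all rows tested, and genes were called at an adjusted p under 0.1. Fold changes are on that log2(value + 1) scale, which understates changes of low genes. The 5 comparisons were LPS and oxLDL each against control, oxLDL+LPS against oxLDL and against LPS, and the interaction, and those sharing a group share its libraries. Named per comparison were called members with the smallest p that moved alike in all 3 replicate numbers, or the 5 highest and 5 lowest where fewer were called, with genes of fixed roles and paralogs with parents. A few of these genes are counted but not reported by name here.

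Replicate numbers paired the libraries, since the methods describe cells pooled and divided into 4 groups and same-numbered libraries deviated together (correlations of 0.305 to 0.733 over 11186 rows). Without the block, p-values set differences against the spread of libraries within a group and leave this pairing aside. With the block, differences are set against the spread of the paired differences over these 3 experiments. The blocked fit is given where it changed a call or a count by over 1.5 times. Alternatives were the pseudocount, filter, threshold, variance trend, scaling, the replicate block, a joint fit of all libraries, and leaving out each library or number; scaling to the members, total scaling with the block, the stricter threshold with the block, and blocked fits without a number were added after seeing the data. The scripts were tested on simulated data. Start sequences and promoters came from RefSeq (GRCm38.p6), and gene coordinates and exon lengths from a GENCODE annotation of GRCm38. Rows whose symbols had been turned into dates by spreadsheet software (25) are not members. Marker and translation lists were read at their summed values or counts. Tables and figures used Python 3.11.15, pandas 2.3.3, numpy 2.4.6 and matplotlib 3.10.9.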

Additional observations from a re-analysis of the deposited data

How the results depend on the processing

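The scaling decided the direction of the LPS comparisons. Between LPS and control the median of the 81 genes was 0.16 as deposited and -0.32 at 1 library total (with or without the replicate block), -0.33 at 1 total of the other rows, -0.44 after quantile normalization and -0.014 scaled to the members' geometric mean (with or without the block). Between oxLDL+LPS and oxLDL the same settings gave 0.13, -0.26, -0.27, -0.36 and -0.0012, and for the interaction -0.033, 0.060, 0.061, 0.067 and 0.011. Among the called genes that lead their comparison by p, total scaling (same value with the block), total scaling on the other rows, and quantile normalization reversed these values between LPS and control: Rpl38 (-0.15, -0.15 and -0.046), Rps20 (-0.15, -0.15 and -0.29), Rpl19 (-0.19, -0.20 and -0.39), Rpl15 (-0.18, -0.19 and -0.22), Rps9 (-0.12, -0.12 and -0.34) and Rpl35 (-0.18, -0.19 and -0.17). Rpl7l1 was reversed by the total scalings (-0.027 and -0.033). Between oxLDL+LPS and oxLDL they reversed Rps9 (-0.068, -0.074 and -0.26), Rpl19 (-0.12, -0.13 and -0.30), Rps6 (-0.087, -0.093 and -0.16), Rpl7a (-0.13, -0.13 and -0.36), Rps23 (-0.14, -0.15 and -0.25), Rpl35 (-0.11, -0.11 and -0.11) and Rpl15 (-0.14, -0.15 and -0.19). Of members not called, 57 of 64 and 49 of 65 changed sign at 1 total in the 2 comparisons.

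Between LPS and control the count called was 17, and it was 32 with the replicate block, 8 with no filter on low values, 8 with no variance trend, 51 at 1 total (66 with the block), 52 at 1 total of other rows, 58 after quantile normalization, 6 scaled to the members and 5 at an adjusted p under 0.05. Between oxLDL+LPS and oxLDL it was 16, and 28 with the block, 47 at 1 total (61 with the block) and 48 at 1 total of other rows. It was 56 after quantile normalization, 6 scaled to the members and 10 at 0.05. Over all rows, calls between LPS and control were 4201 higher and 4088 lower of 23339 with no filter. They were 3981 and 3934 of 13023 with no variance trend, 3243 and 4816 after quantile normalization, and 3641 and 3408 at 0.05. In the second comparison they were 2848 and 4283 of 12900 after quantile normalization, and 3224 and 2870 at 0.05. Leaving out a library or number gave 4 to 23 and 5 to 21, and with the block up to 40 and 32 (without number 1). The second count was lowest without number 1 (5) and number 3 (6), and it was 7 without oxLDL replicate 2. Over all rows, that comparison had 2869 called higher and 2543 lower of 12113 without number 1, and 2613 and 2327 of 12256 without number 3. With the block and without number 1, these were 3854 and 3696 of 12113, and 4138 and 3947 of 12092 between LPS and control. The medians then ranged from 0.048 to 0.25 between LPS and control, from -0.050 to 0.14 between oxLDL and control, and from -0.14 to 0.062 for the interaction, which was above 0 without control replicate 2 (0.046), oxLDL replicate 3 (0.0032) or LPS replicate 3 (0.062). The blocked fit called 29 members between oxLDL and control without number 3 and 1 between oxLDL+LPS and LPS without number 2, against 0 otherwise. Both of these fits rest on 2 libraries a group. With 3 libraries a group, small differences among these genes are not resolved, and the cause of the dependence on single libraries was not tested.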

Other observations

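A few genes of the same family lay outside the rule for level or name. Rpl24, a core protein of the large subunit, was listed at 46, 21 and 42 in control, 49, 40 and 40 in oxLDL, 58, 75 and 82 in LPS and 75, 85 and 78 in oxLDL+LPS replicates, far under the other core genes. Why Rpl24 was listed so low was not tested, and reads shared with pseudogenes could not be assigned, so its true level is not known here. On the deposited scale its listed values were higher with LPS by 1.02 on the log2 scale (limma, adjusted p = 0.031). After oxLDL they were higher with LPS by 0.87 (limma, adjusted p = 0.0073). At 1 library total the differences were 0.55, which did not pass the test (limma, adjusted p = 0.17), and 0.49, which did (limma, adjusted p = 0.0562). Rpl36al, a paralog of Rpl36a, ranged from 742 to 1072. Gnb2l1, the older symbol of Rack1, a scaffold protein on the small subunit, ranged from 8372 to 12968, which is the level of the core genes. Rps3a2 and Rps3a3 stayed at or under 19, and Rpl10l, a paralog active in testis, was listed at 0 in all 12 libraries.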
